A study of Mus musculus with 18 samples.

Results

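The Hox genes of the 4 clusters were followed in mouse embryonic stem cells (strain C57BL/6) that differentiated as embryoid bodies, clumps of cells in suspension that begin to make the tissues of the early embryo. Members were all protein-coding genes whose symbol consists of Hox, a cluster letter from a to d and a number. Under this rule 36 of the 22180 genes measured were members, with 9 in cluster A (chromosome 6), 10 in cluster B (chromosome 11), 9 in cluster C (chromosome 15) and 8 in cluster D (chromosome 2). Each of the 36 was read from 1 probe set, and Hoxb5 alone had a second one.

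Thalidomide, a human teratogen that binds the ubiquitin ligase receptor cereblon, was given at 0.25 mM for 24, 48 or 72 h, starting on day 3 when embryoid bodies had formed. Controls of the same hours received the vehicle, 0.25% DMSO, according to the treatment protocol. The series description calls the controls unexposed instead, and their source names count hours from the formation of the embryoid bodies, so the labels leave the controls' vehicle and their stage unsettled. The 18 arrays formed 6 groups of 3 biological replicates, all from the same strain and with no allele named. A re-analysis tag stands in the titles of the 9 control arrays and of the 3 thalidomide arrays at 24 h. It is missing from the 6 later thalidomide arrays, so at 48 h and 72 h the tag and the exposure cannot be told apart. Within the thalidomide course the tag and the time cannot be told apart between 24 h and the later hours. The same limit holds where that course is set against the control course, and for exposure effects compared with 24 h.

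Hox genes encode homeodomain transcription factors that give cells their position along the head-to-tail axis. In mammals they lie in 4 clusters, and genes at the same place in different clusters form a paralogous group, numbered from the 3′ end of each cluster. Genes of low number are known to be switched on earlier and further towards the head than genes of high number, under the influence of retinoic acid, Wnt and FGF signals and Cdx factors, while Polycomb complexes keep unused members silent.

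Promoters are shown for 4 members on which the results below turn. Hoxb1 and Hoxd1 are paralogues of which Hoxb1 fell in both courses and Hoxd1 rose in the control course, Hoxa2 rose in both courses, and Hoxb4 passed the test of exposure. Each is the stretch of 250 bases before the gene's start, 5′ to 3′ on the gene's strand, from RefSeq on GRCm38.p6. Capitals mark TGATNNAT on either strand, a form of site that Hox and Pbx proteins are known to bind together.
Hoxb1, chr11:96365508-96365757, plus strand: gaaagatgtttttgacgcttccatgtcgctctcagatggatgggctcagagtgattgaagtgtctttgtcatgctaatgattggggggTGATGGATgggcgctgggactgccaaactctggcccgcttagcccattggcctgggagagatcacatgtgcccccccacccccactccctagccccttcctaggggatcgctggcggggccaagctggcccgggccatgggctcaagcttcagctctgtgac
Hoxd1, chr2:74762730-74762979, plus strand: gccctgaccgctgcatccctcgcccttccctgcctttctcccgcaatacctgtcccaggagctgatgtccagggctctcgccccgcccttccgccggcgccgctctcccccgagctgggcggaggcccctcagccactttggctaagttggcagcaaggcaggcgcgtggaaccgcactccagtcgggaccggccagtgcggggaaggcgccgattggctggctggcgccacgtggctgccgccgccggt
Hoxa2, chr6:52164832-52165081, minus strand: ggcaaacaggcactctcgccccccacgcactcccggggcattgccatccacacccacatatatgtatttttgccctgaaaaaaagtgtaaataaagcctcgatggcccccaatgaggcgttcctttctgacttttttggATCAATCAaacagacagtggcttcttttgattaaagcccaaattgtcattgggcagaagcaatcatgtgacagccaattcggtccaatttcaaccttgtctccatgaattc
Hoxb4, chr11:96318017-96318266, plus strand: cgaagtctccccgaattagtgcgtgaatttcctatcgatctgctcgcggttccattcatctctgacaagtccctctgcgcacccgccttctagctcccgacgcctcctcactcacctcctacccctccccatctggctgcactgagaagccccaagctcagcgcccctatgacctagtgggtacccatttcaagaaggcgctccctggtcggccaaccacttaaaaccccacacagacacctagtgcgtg
The Hoxb1 stretch held 1 match, TGATGGAT, from 162 to 155 bases before the start, and the Hoxa2 stretch held 1 on the reverse strand, from 111 to 104 bases before it. No match lay in the Hoxd1 and Hoxb4 stretches. The table held promoters of 20 of the 36 members. In the 250 bases before the start, the form occurred in 7.68% of 32851 promoters. It occurred in 4 of 22 promoters of those 20 genes, namely Hoxa2, Hoxb1, Hoxb8 and Hoxd11. A form that Cdx proteins bind, TTTATNG, occurred in 9.81% of all promoters and in 1 of the 22, that of Hoxb8. CCAAT was held by 13 of the 22, against 33.8% of all promoters, and TATAAA by 3 of the 22, against 12.4%. These matches describe the letters only.

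Signals are log2 values with nearly equal distributions on all arrays, so a change is relative to the other genes of an array. A member was called where the adjusted p of limma's moderated test over all 22180 genes was under 0.05. The arrays carry no detection values, so a signal was termed dim at or below 5.27, the 95th percentile of 1394 olfactory and vomeronasal receptor genes, which these cells are not known to use. Under this measure 8 members (Hoxa3, Hoxa10, Hoxb13, Hoxc5, Hoxc11, Hoxd9, Hoxd11 and Hoxd12) were dim in every group and 28 were not. The labels give embryonic stem cells as the cell type. The summed linear signal of 8 pluripotency markers ran from 2148 to 2357 at 24 h, 623 to 799 at 48 h and 421 to 502 at 72 h in thalidomide cultures. In controls it ran from 3201 to 3636, 610 to 746 and 464 to 528 at those times. Such sums weigh the brightest marker most, here Tdgf1 (group means of 10.45 and 11.20 at 24 h), and do not speak for each marker. At 72 h Tdgf1 was lower in thalidomide cultures (6.73 against 7.62), while Nanog (5.30 against 4.82) and Utf1 (5.64 against 5.13) were higher. In the control course 6 of these 8 markers and all 6 measured markers of the primitive streak fell, while 6 of 7 cardiac muscle markers rose. Of all genes, 14.3% fell and 13.1% rose in that course. In such bulk RNA, fewer cells of a type and less RNA per cell cannot be told apart.

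The first comparison asked how the members changed with time. Most Hox genes of the middle of the clusters rose between 24 h and 72 h, 1 of the 11 genes at the 5′ end rose in controls and none in thalidomide cultures, and Hoxb1 fell more than any other member in both courses. In thalidomide cultures 11 members rose and 3 fell between 24 h and 72 h, which is 38.9% of the 36, where 25.1% of all genes were called (14.4% up and 10.6% down). In controls 17 rose and 3 fell, which is 55.6%, where 27.5% of all genes were called (13.1% up and 14.3% down). The median change of the 36 was 0.22 in thalidomide cultures and 0.32 in controls on the log2 scale, against −0.03 and −0.04 for all genes. Of the rising members in thalidomide cultures, 7 of 11 (Hoxa2, Hoxa5, Hoxa9, Hoxb6, Hoxb7, Hoxc5 and Hoxc6) had a dim group mean at 24 h. In controls 9 of 17 (Hoxa2, Hoxa5, Hoxb4, Hoxb6, Hoxb8, Hoxc5, Hoxc6, Hoxc9 and Hoxd3) did. The size of their change is therefore uncertain. The 8 members of largest control change, whose arrays are given below, include Hoxa2, Hoxa5, Hoxb6, Hoxc6 and Hoxc9, so that choice shares the uncertainty. Leaving out replicate 3 of the controls at 24 h reduced the 20 control calls to 13, and leaving out replicate 2 of the thalidomide arrays at 72 h reduced the 14 thalidomide calls to 9.

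**Figure D1:**
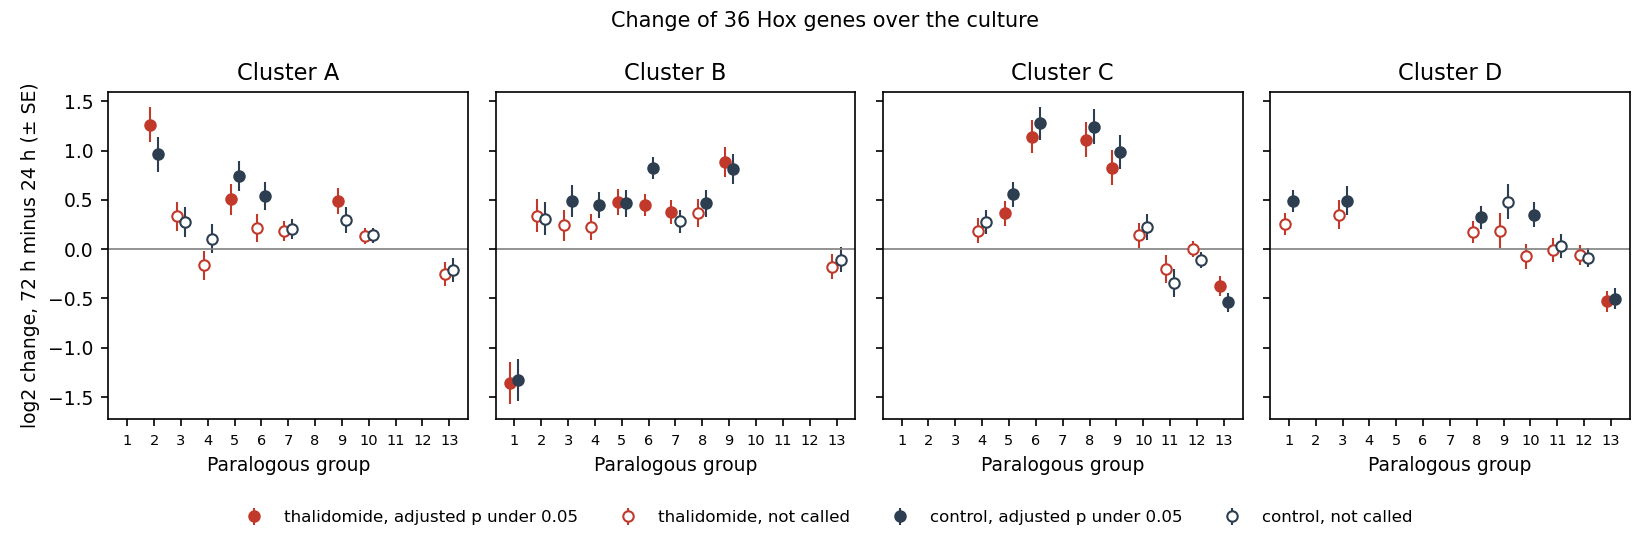
Log2 change from 24 h to 72 h (vertical axis, ± SE) of each of 36 Hox genes by its paralogous group (horizontal axis), 1 panel per cluster, with thalidomide cultures in red left of controls in dark blue. Filled points passed an adjusted p under 0.05. Hoxb1 lies at −1.36 in thalidomide cultures and −1.32 in controls, all 18 control points of groups 4 to 9 lie above 0, and the 4 genes of group 13 lie below 0 in both courses.

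Among the 7 measured members of groups 1 to 3, which pattern the hindbrain and the anterior trunk, Hoxb1 fell and Hoxa2 rose in both courses. Hoxb1, a gene of the early posterior embryo and later of 1 hindbrain segment, had log2 signals of 7.84, 7.49 and 7.23 at 24 h, 7.56, 7.33 and 7.44 at 48 h and 5.81, 6.50 and 6.17 at 72 h in thalidomide cultures. In controls it had 8.01, 7.73 and 7.49 at 24 h, 7.77, 7.27 and 7.41 at 48 h and 6.20, 6.88 and 6.18 at 72 h. All 6 arrays of 72 h were below all 12 earlier ones. The fall between 24 h and 72 h was −1.36 ± 0.21 (SE, adjusted p = 0.00015) in thalidomide cultures and −1.32 ± 0.21 (adjusted p = 0.000154) in controls, a level 0.399 times that of 24 h in controls. It was called between 48 h and 72 h (−1.28 in thalidomide cultures and −1.06 in controls) and not between 24 h and 48 h. A test of whether the second step differed from the first did not pass for Hoxb1 (adjusted p = 0.0945 in thalidomide cultures and 0.359 in controls).

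Its paralogue Hoxd1 rose in the first step of both courses, and over the whole course in controls. Thalidomide arrays had 5.65, 5.56 and 5.51 at 24 h, 6.14, 6.29 and 6.06 at 48 h and 5.78, 5.88 and 5.82 at 72 h. Control arrays had 5.64, 5.45 and 5.55, then 6.43, 6.26 and 6.03, then 5.79, 6.27 and 6.05 at these times. At 48 h every array was above every array of 24 h, and the thalidomide arrays of 72 h lay between those of 24 h and 48 h. The first step was 0.59 ± 0.11 (adjusted p = 0.00275) in thalidomide cultures and 0.69 ± 0.11 (adjusted p = 0.000549) in controls. The second step differed from the first by −0.92 (adjusted p = 0.0194) in thalidomide cultures and −0.89 (adjusted p = 0.021) in controls, tests that were chosen after the values were seen.

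Hoxa2, which sets the identity of the second branchial arch, had 5.36, 5.10 and 4.84 at 24 h, 5.68, 5.83 and 5.89 at 48 h and 6.50, 6.13 and 6.45 at 72 h in thalidomide cultures. Controls had 5.29, 4.86 and 5.29 at 24 h, 6.10, 5.75 and 5.94 at 48 h and 6.19, 6.46 and 5.68 at 72 h. The 3 times did not overlap in thalidomide cultures, whereas 1 control array of 72 h was below all control arrays of 48 h. The gain from 24 h to 72 h was 1.26 ± 0.18 (adjusted p = 6.16e-05) in thalidomide cultures and 0.96 ± 0.18 (adjusted p = 0.00062) in controls. Hoxb3 (0.49) and Hoxd3 (0.49), of the paralogous group that acts in hindbrain and neck, rose in controls, where their thalidomide changes of 0.24 and 0.35 were not called. Hoxb2 and Hoxa3 rose between 24 h and 48 h in thalidomide cultures, by 0.61 and 0.53, where control changes of 0.32 and 0.18 were not called. The difference between these first steps did not pass for either gene.

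All 18 members of groups 4 to 9, the genes of the neck and trunk, had a control change above 0 between 24 h and 72 h, and 12 of them rose. In thalidomide cultures 17 of the 18 were above 0 and 10 rose, with medians of 0.37 in thalidomide cultures and 0.47 in controls. Among all genes 14.4% rose in thalidomide cultures and 13.1% in controls. Hoxc6, Hoxc8 and Hoxc9, neighbours in cluster C that act in the thoracic region, rose in both courses.

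Hoxc6 had 4.93, 4.99 and 5.05 at 24 h, 6.62, 6.32 and 6.63 at 48 h and 5.72, 6.44 and 6.23 at 72 h in thalidomide cultures. Its control arrays had 5.07, 5.23 and 5.05, then 6.28, 5.90 and 6.29, then 6.31, 6.71 and 6.16. Every array of 48 h and 72 h was above every array of 24 h. From 24 h to 48 h Hoxc6 rose by 1.53 ± 0.17 (adjusted p = 1.59e-05) in thalidomide cultures and by 1.04 ± 0.17 (adjusted p = 0.000438) in controls. Over the whole course it rose by 1.14 ± 0.17 (adjusted p = 8.47e-05) in thalidomide cultures and 1.28 ± 0.17 (adjusted p = 2.01e-05) in controls. In thalidomide cultures the second step was lower than the first by −1.93 ± 0.29 (adjusted p = 0.00177).

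Hoxc8 had 6.00, 5.62 and 5.43 at 24 h, 6.78, 6.52 and 6.56 at 48 h and 6.67, 7.04 and 6.66 at 72 h in thalidomide cultures, and 5.65, 5.67 and 5.31, then 6.71, 6.59 and 6.86, then 6.46, 7.20 and 6.69 in controls. Hoxc9 had 5.52, 5.47 and 5.25 at 24 h, 5.69, 5.88 and 6.02 at 48 h and 5.89, 6.52 and 6.32 at 72 h in thalidomide cultures, and 5.16, 5.33 and 5.02, then 5.99, 5.79 and 6.04, then 5.94, 6.61 and 5.92 in controls. For both genes the arrays of 24 h lay below all later ones. From 24 h to 72 h Hoxc8 rose by 1.11 ± 0.18 (adjusted p = 0.000192) in thalidomide cultures and 1.24 ± 0.18 (adjusted p = 5.06e-05) in controls. Hoxc9 rose by 0.83 ± 0.17 (adjusted p = 0.00213) in thalidomide cultures and 0.99 ± 0.17 (adjusted p = 0.000399) in controls.

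In the same stretch of cluster B, Hoxb9 and Hoxb6, which pattern the thoracic skeleton, rose in both courses. Hoxb9 had 6.41, 6.34 and 6.30 at 24 h, 7.42, 7.19 and 7.24 at 48 h and 7.14, 7.32 and 7.24 at 72 h in thalidomide cultures, and 6.35, 6.03 and 6.22, then 7.07, 6.89 and 7.17, then 6.81, 7.50 and 6.73 in controls. Hoxb6 had 5.40, 4.96 and 4.87 at 24 h, 5.65, 5.61 and 5.70 at 48 h and 5.55, 5.68 and 5.34 at 72 h in thalidomide cultures, and 4.92, 4.83 and 4.99, then 5.72, 5.58 and 5.70, then 5.68, 5.80 and 5.75 in controls. For Hoxb9 no array of 24 h reached a later one, and for Hoxb6 a single thalidomide array of 24 h was above 1 thalidomide array of 72 h. Hoxb9 rose by 0.88 ± 0.15 (adjusted p = 0.00034) in thalidomide cultures and 0.81 ± 0.15 (adjusted p = 0.000588) in controls, and Hoxb6 by 0.45 ± 0.11 (adjusted p = 0.00812) in thalidomide cultures and 0.83 ± 0.11 (adjusted p = 3.45e-05) in controls. Hoxb5 rose by 0.48 in thalidomide cultures and 0.46 in controls, but its second, dimmer probe set changed by 0.22 and 0.29 and was not called (adjusted p = 0.395 and 0.227 in a fit of all probe sets).

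In cluster A, Hoxa5, a gene of the developing lung and neck, had 5.30, 5.13 and 4.95 at 24 h, 5.62, 5.43 and 5.66 at 48 h and 5.62, 5.83 and 5.44 at 72 h in thalidomide cultures. Control arrays had 5.36, 4.83 and 5.14, then 5.71, 5.37 and 5.75, then 5.57, 6.06 and 5.93. No array of 24 h was above one of 72 h from the same course. Hoxa5 rose by 0.51 ± 0.15 (adjusted p = 0.0232) in thalidomide cultures and 0.75 ± 0.15 (adjusted p = 0.00149) in controls. Hoxc5, of the same paralogous group, rose by 0.36 in thalidomide cultures and 0.56 in controls at a dim signal, and its thalidomide call passed in 6 of 18 fits without 1 array. Hoxa4 changed by −0.16 in thalidomide cultures and 0.10 in controls and was called in neither, nor were Hoxa7 and Hoxc4.

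At the 5′ end, groups 10 to 13, which act in the lumbar to tail region and the distal limb, had medians of −0.07 in thalidomide cultures and −0.10 in controls. Of these 11 members, 0 rose and 2 fell in thalidomide cultures, and 1 rose and 2 fell in controls. Among all genes, 14.4% rose and 10.6% fell in thalidomide cultures, and 13.1% rose and 14.3% fell in controls. Hoxa10, Hoxb13, Hoxc11, Hoxd11 and Hoxd12 were dim in every group, which limits what their lack of a call shows. Hoxd13, a gene of the digits and the hindmost trunk, had 5.07, 5.14 and 5.51 at 24 h, 4.96, 5.09 and 4.98 at 48 h and 4.64, 4.80 and 4.70 at 72 h in thalidomide cultures, and 5.35, 5.44 and 5.19, then 4.80, 4.63 and 4.67, then 4.90, 4.70 and 4.87 in controls. All arrays of 72 h were below those of 24 h, and all values of 48 h and 72 h were dim. The mean of 24 h was 5.24 in thalidomide cultures, also dim, and 5.33 in controls. Hoxd13 fell by −0.53 ± 0.10 (adjusted p = 0.00127) in thalidomide cultures and −0.50 ± 0.10 (adjusted p = 0.00157) in controls. In controls the whole fall lay in the first step (−0.63), from which the second step differed by 0.75 (adjusted p = 0.0362).

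Hoxc13, a gene of hair and nail, had 6.16, 6.03 and 6.04 at 24 h, 5.70, 5.96 and 5.65 at 48 h and 5.66, 5.54 and 5.91 at 72 h in thalidomide cultures. In controls it had 6.01, 5.94 and 5.87, then 5.79, 5.76 and 5.62, then 5.28, 5.48 and 5.44. The control times followed each other downwards without overlap, and the thalidomide arrays of 48 h and 72 h overlapped. The change over the course was −0.37 ± 0.10 (adjusted p = 0.0122) in thalidomide cultures and −0.54 ± 0.10 (adjusted p = 0.000619) in controls. Hoxa13 (−0.25 and −0.21) and Hoxb13 (−0.18 and −0.11) were below 0 in both courses as well, without a call. The single member of this stretch that rose was Hoxd10, by 0.35 (adjusted p = 0.044) in controls, where it changed by −0.07 in thalidomide cultures.

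Set out by cluster instead, 3 of 9 members of cluster A, 4 of 10 of B, 4 of 9 of C and 0 of 8 of D rose in thalidomide cultures. In controls 3, 6, 4 and 4 rose. Of all genes, 14.4% rose in thalidomide cultures and 13.1% in controls, so few risers would be due among 8 genes at those shares. Hoxb1, Hoxc13 and Hoxd13 fell in both, so cluster A held no member that fell. The lack of rising cluster D genes in thalidomide cultures was not shown to be a difference between the courses, since none of the 36 passed the test of a different change from 24 h to 72 h. For the 4 cluster D genes that rose in controls, thalidomide and control changes were 0.25 and 0.49 for Hoxd1, 0.35 and 0.49 for Hoxd3, 0.17 and 0.32 for Hoxd8, and −0.07 and 0.35 for Hoxd10.

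**Figure D2:**
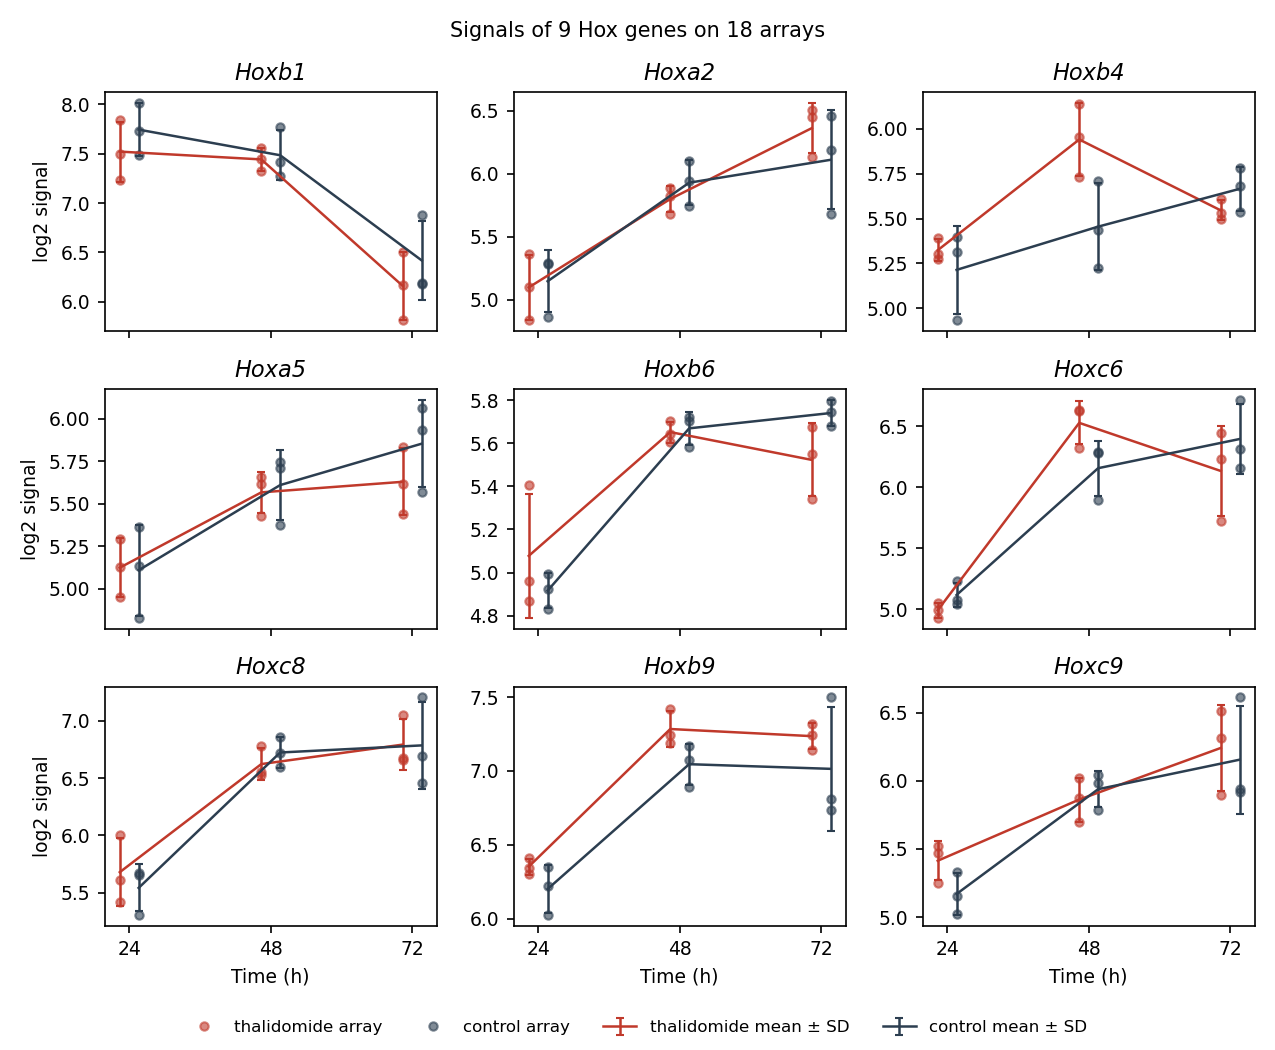
Log2 signal (vertical axes) of 9 Hox genes at 24, 48 and 72 h (horizontal axis), with 1 point per array and lines through group means ± SD (n = 3), thalidomide in red left of control in dark blue. Hoxb1 drops at 72 h to 5.81 to 6.50 in thalidomide cultures and 6.18 to 6.88 in controls. The other 8 genes have higher means at 72 h than at 24 h in both courses. At 48 h all thalidomide points of Hoxb4, Hoxb9 and Hoxc6 lie above their control points.

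More members were called in the first step than in the second in both courses. Between 24 h and 48 h, 11 members rose and 0 fell in thalidomide cultures (30.6%, with 10.1% of all genes called, 5.72% up and 4.36% down), and 10 rose and 1 fell in controls (30.6%, with 13.6% of all genes called, 6.93% up and 6.7% down). Between 48 h and 72 h, thalidomide cultures had 1 rise (Hoxc5, 0.41) and 1 fall (Hoxb1), or 5.56%, with 10.2% of all genes called. The Hoxc5 rise, at a signal dim in every group, passed in 4 of 8 other settings and 3 of 18 fits without 1 array. The Hoxb1 fall passed in 9 of 9 and 18 of 18. Controls had 1 rise (Hoxd10, 0.49) and 1 fall (Hoxb1), also 5.56%, with 6.53% of all genes called. The Hoxd10 rise passed in 6 of 9 other settings and 15 of 18 fits without 1 array, and this Hoxb1 fall in all of them. Without replicate 3 of the thalidomide arrays at 24 h, the 11 thalidomide calls of the first step became 7. The test of the second step against the first passed for 3 members in thalidomide cultures (8.33%, with 2.79% of all genes called). In controls it passed for 2 (5.56%, with 2.51% of all genes called). The second step was below the first in this test for Hoxc6, Hoxd1 and Hoxb4 in thalidomide cultures and for Hoxd1 in controls. This test was chosen after the values were seen and was not repeated under other settings or without single arrays.

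The 2 courses resembled each other, although only the later thalidomide arrays lacked the re-analysis tag. Of the members called between 24 h and 72 h, 12 were called in both with the same direction, 9 up and 3 down, which is 85.7% of the thalidomide calls and 60% of the control calls. Calls of the control course alone numbered 8 (Hoxa6, Hoxb3, Hoxb4, Hoxb8, Hoxd1, Hoxd3, Hoxd8 and Hoxd10), and those of the thalidomide course alone 2 (Hoxa9 and Hoxb7). The sign was the same for 32 of the 36, and the change was smaller in size in thalidomide cultures for 24. Across the 36 genes, which are not independent replicates and share the arrays, the changes correlated at Pearson's r = 0.946 and Spearman's rho = 0.884, and at 0.922 and 0.874 without Hoxb1. Over all genes, calls shared in direction were 63.8% of the thalidomide calls and 58.2% of the control calls, 72% of genes had the same sign (88.9% of the members), and r was 0.81 and rho 0.623. No test set the members apart from the other genes in this.

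The second comparison asked whether thalidomide changed the members at a given time. At 24 h, limma called 0 of the 36, with 6.86% of all genes called, and 0 had an unadjusted p under 0.05, which 21.2% of all genes had. Differences ran from −0.24 for Hoxb2 to 0.24 for Hoxc9 with a median of 0.04, and the 95% intervals of all 36 lay within −0.67 to 0.61. Changes beyond that range on the log2 scale lay outside every interval. The share of all genes called was less stable than the count of members, at 2.62% without replicate 3 and 3% without replicate 1 of the controls at 24 h, 2.95% without replicate 1 of the thalidomide arrays and 0.546% with only the groups compared in the fit.

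At 48 h, 1 member was called, Hoxb4, which is 2.78% of the 36, with 6.08% of all genes called. That share fell to between 2.23% and 3.19% when any array of 48 h other than replicate 1 of the thalidomide arrays was left out, and to 0.735% with only the groups compared in the fit. Hoxb4, which acts in neck patterning and blood stem cells, had log2 signals of 6.14, 5.73 and 5.96 in thalidomide cultures, against 5.71, 5.43 and 5.22 in controls. The groups did not overlap, although the lowest thalidomide and the highest control array (5.73 and 5.71) nearly met. The difference was 0.49 ± 0.13 (95% interval 0.21 to 0.76, adjusted p = 0.0395). It was above 0 under every setting in which Hoxb4 was tested, from 0.37 to 0.61. It passed the threshold in 4 of 8 other such settings and in 13 of 18 fits without 1 array. At 24 h Hoxb4 had 5.39, 5.30 and 5.28 in thalidomide cultures, against 5.40, 5.31 and 4.93 in controls. At 72 h it had 5.61, 5.53 and 5.50, against 5.54, 5.78 and 5.68 in controls, and the groups overlapped at both of these times. The exposure effect at 72 h was lower than that at 48 h by −0.61, which did not pass (adjusted p = 0.159).

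Of the other members at 48 h, 6 had an unadjusted p under 0.05 without passing the adjusted threshold. They were Hoxc6 (0.37), Hoxc11 (0.37), Hoxd13 (0.31), Hoxd12 (0.21), Hoxc5 (−0.28) and Hoxb8 (−0.40), and Hoxc11, Hoxc5 and Hoxd12 were dim in every group. With Hoxb4 this makes 7 of 36, where 23.3% of all genes had such a p. Hoxd13 had 4.96, 5.09 and 4.98 in thalidomide cultures, against 4.80, 4.63 and 4.67 in controls. These arrays did not overlap, and the adjusted p was 0.0876. Hoxa7, the cluster A gene with the smallest p, had 5.65, 5.65 and 5.96 in thalidomide cultures, against 5.71, 5.62 and 5.42 in controls, which overlapped (0.17, adjusted p = 0.343). By position, 10 of 11 members of groups 10 to 13 were above 0 at 48 h with a median of 0.21, beside 11 of 18 with 0.09 in groups 4 to 9 and 4 of 7 with 0.05 in groups 1 to 3, where the median of all genes was 0.01 and 51.2% were above 0. Genes below the median signal, which included 9 of the 11, had a median of 0.07 with 65.9% above 0, and the other genes −0.06 with 36.5% above 0. The part of signal level in the Hox values was not tested. The mean log2 signal of the 36 was 5.65, 5.65 and 5.69 on the thalidomide arrays of 48 h, against 5.61, 5.47 and 5.60 on the control arrays. These means did not overlap, and no test was made of them because the members share their arrays.

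At 72 h, limma called 0 of the 36, with 0.00902% of all genes called, and 2 had an unadjusted p under 0.05, Hoxc12 (0.22) and Hoxc13 (0.30), where 9.12% of all genes did. Hoxc13 had 5.66, 5.54 and 5.91 in thalidomide cultures, against 5.28, 5.48 and 5.44 in controls. No control array reached a thalidomide array, and the adjusted p was 0.326. Differences of the 36 ran from −0.26 for Hoxc6 to 0.30 for Hoxc13, with a median of −0.06 and intervals within −0.71 to 0.63. For Hoxb1 the difference was −0.26, with 95% interval -0.71 to 0.19. Summed signals of 10 neural tube markers ran from 1435 to 1885 in thalidomide cultures at 72 h, against 1063 to 1381 in controls, and those of 7 cardiac markers from 1130 to 2739, against 3967 to 4045. Their part in the Hox values was not tested.

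Whether the exposure effect differed between times was tested for each pair of times, and limma called 0 of the 36 in each. Among all genes 0%, 0.0947% and 0.496% were called for 48 h against 24 h, 72 h against 48 h and 72 h against 24 h, and 2, 6 and 2 members had an unadjusted p under 0.05, as did 7.67%, 14% and 14.3% of all genes. The widest differences were those of Hoxc6, 0.50 for 48 h against 24 h and −0.63 for 72 h against 48 h.

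**Figure D3:**
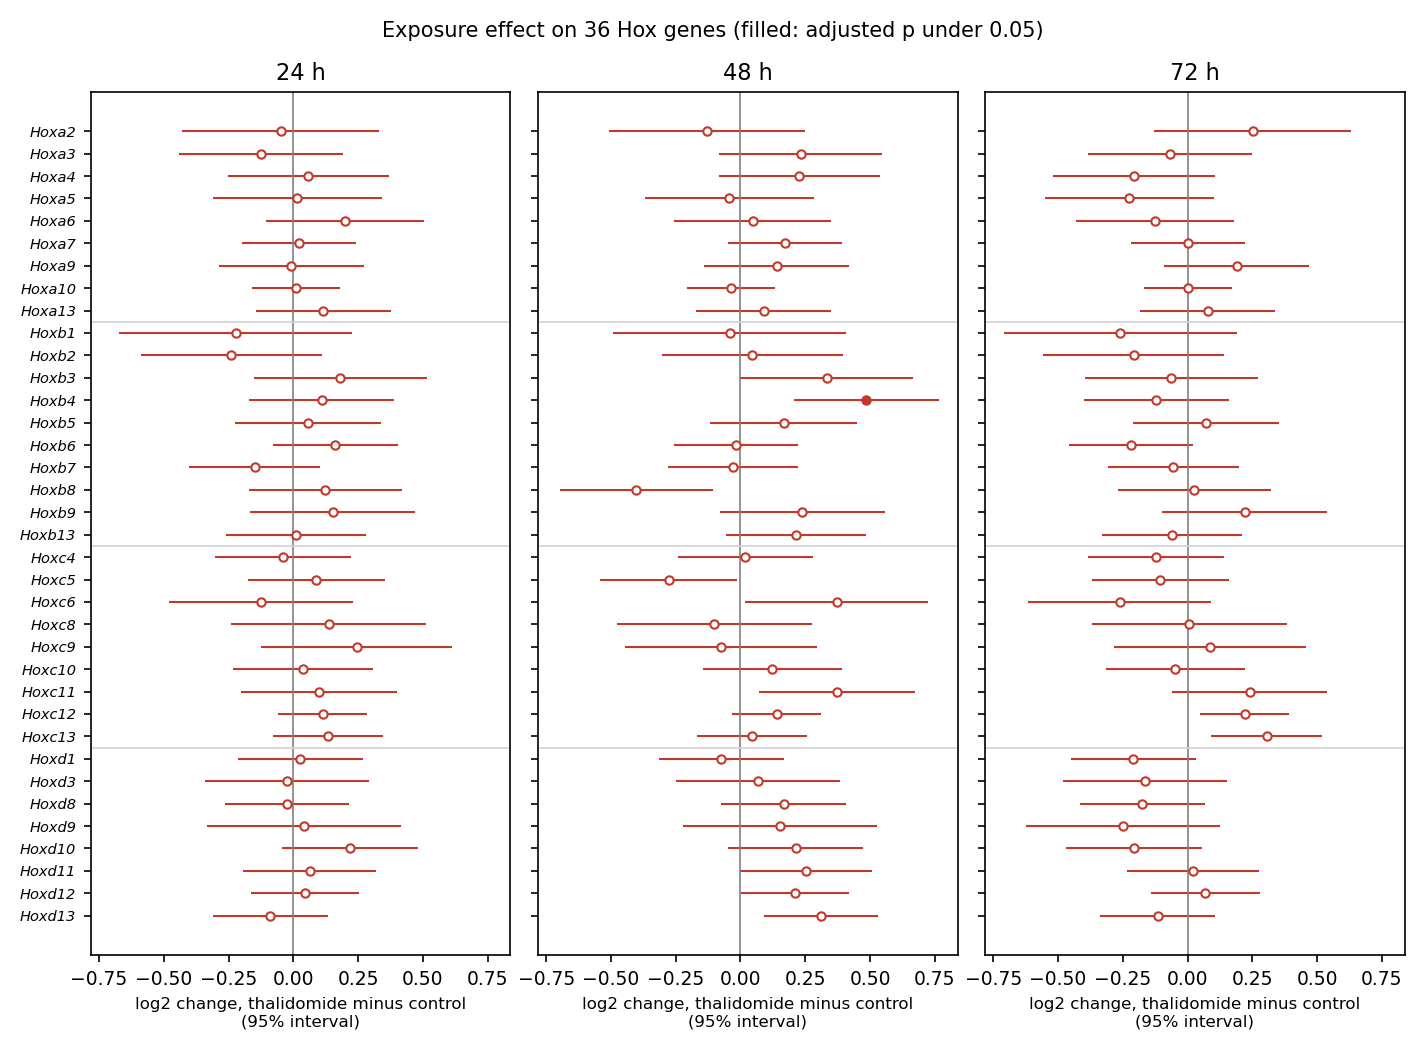
Difference of log2 signal, thalidomide minus control (horizontal axes, with 95% intervals), of 36 Hox genes (rows, with grey lines between clusters A to D from top to bottom) at 24, 48 and 72 h. The 1 filled point, Hoxb4 at 48 h (0.49), passed an adjusted p under 0.05, and all 36 intervals at 24 h lie within −0.67 to 0.61.

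Single arrays were high or low for most members. At 24 h replicate 3 was lowest on average in both groups, with 11 of 36 members above the group mean in thalidomide cultures and 10 in controls, and the highest value of its group for 5 and 3 members. This time is the baseline of both courses. At 72 h the mean log2 signal of the 36 was 5.50, 5.69 and 5.55 on the thalidomide arrays and 5.51, 5.82 and 5.54 on the control arrays, in the order of the replicate numbers. Replicate 2 gave the highest value of its group for 26 of 36 members in thalidomide cultures and for 26 of 36 in controls, where 28.8% and 34.7% of all genes were highest on that array. On these arrays the neural tube markers summed to 1435, the lowest of the 3, in thalidomide cultures and to 1381, the highest of the 3, in controls, and their part in the Hox values was not tested. Without both arrays, a setting added after the data were seen, the 14 thalidomide calls between 24 h and 72 h became 10 and the 20 control calls became 13 (10 up and 3 down).

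**Figure D4:**
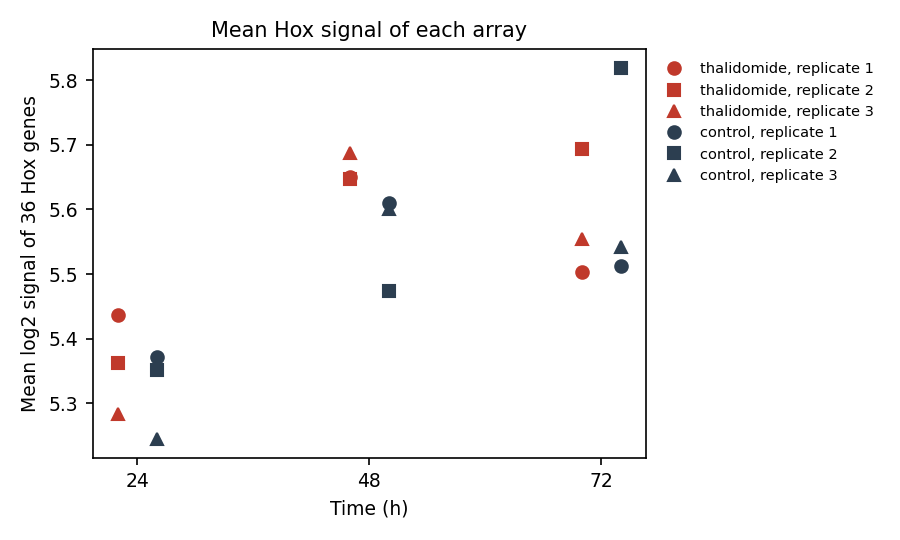
Mean log2 signal of 36 Hox genes (vertical axis) on each of 18 arrays by time (horizontal axis), with thalidomide in red left of control in dark blue and the replicate number as the marker. At 72 h replicate 2 is highest in both groups, at 5.69 in thalidomide cultures and 5.82 in controls, and the thalidomide and control arrays overlap at 24 h and 72 h.

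Some calls of both courses depended on the settings. Of the 14 thalidomide calls between 24 h and 72 h, 8 (Hoxa2, Hoxa9, Hoxb1, Hoxb9, Hoxc6, Hoxc8, Hoxc9 and Hoxd13) passed in every setting and in every fit without 1 array in which they were tested, and so did 13 of the 20 control calls (Hoxa2, Hoxa5, Hoxa6, Hoxb1, Hoxb6, Hoxb9, Hoxc5, Hoxc6, Hoxc8, Hoxc9, Hoxc13, Hoxd1 and Hoxd13).

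Genes known to act with Hox proteins or ahead of them were read in the same fits. Between 24 h and 72 h, 14.4% of all genes rose and 10.6% fell in thalidomide cultures. In controls 13.1% of all genes rose and 14.3% fell, and the counts below were not tested against these shares. Of 9 listed DNA-binding partners of Hox proteins 8 were measured, and 3 rose and 2 fell between 24 h and 72 h in thalidomide cultures, against 4 and 1 in controls. Meis1, a partner that binds DNA together with Hox and Pbx proteins, rose by 2.20 ± 0.14 in thalidomide cultures and 2.66 ± 0.14 in controls (adjusted p = 1.37e-08 and 1.08e-09), and Meis2 by 1.45 and 1.56. Of 12 regulators upstream of Hox genes 10 were measured, and 1 rose and 6 fell in each course. Among them Tbx6, a factor of presomitic mesoderm, fell by −1.13 ± 0.14 in thalidomide cultures and −1.64 ± 0.14 in controls, and the growth factor Fgf8 by −1.15 and −1.59. Of 19 genes of retinoic acid handling 18 were measured, and 7 rose and 2 fell in thalidomide cultures, against 6 and 2 in controls. The retinoic acid receptor Rarb rose by 2.22 ± 0.15 in controls. Rarb rose in thalidomide cultures too, from a dim group mean of 5.19 at 24 h to 7.14 at 72 h (adjusted p = 7.14e-08). Crabp1, which binds retinoic acid in the cytoplasm, rose by 3.14 ± 0.24 in thalidomide cultures and 2.00 ± 0.24 in controls. Of 24 Polycomb and Trithorax regulators 21 were measured, and 3 rose and 5 fell in each course, with the Polycomb subunits Phc1 at −1.04 and −1.18 and Cbx7 at −0.71 and −0.69.

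The exposure contrast at 24 h called 5 of the 57 measured genes of these lists, or 8.77%, near the 6.86% of all genes. Cdx4, an activator of posterior Hox genes, rose by 0.47 ± 0.09 (adjusted p = 0.00759) between dim group means of 4.98 in thalidomide cultures and 4.51 in controls. Cyp26a1, which breaks down retinoic acid, fell by −0.58 ± 0.14 (adjusted p = 0.0214), and Fgf8 fell by −0.49 ± 0.14 (adjusted p = 0.0456). Pbx3 and Rnf2, a partner of Hox proteins and a Polycomb subunit, fell by −0.23 each (adjusted p = 0.049 and 0.0388). At 48 h and 72 h limma called 0 of the 57 genes of these 4 lists, with 6.08% and 0.00902% of all genes called. Of the 57, 6 and 12 had an unadjusted p under 0.05, as did 23.3% and 9.12% of all genes.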

How the data were processed

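Total RNA of 18 embryoid body cultures was hybridised to Affymetrix arrays, 1 sample per array. Per the submitters' processing notes, the authors used RMA and Affymetrix Expression Console 1.3, and the deposited log2 signals hold 1 value per probe set. No source used here gives the genome build of the arrays' annotation. Array medians ran from 5.37 to 5.46, and no further normalization was applied. Of 41345 probe sets, 23521 carried 1 symbol in the platform annotation and 1814 several, which were left unnamed. The brightest probe set stood for a gene, which gave 22180 genes. limma 3.58.1 in R 4.3.3 fitted 1 mean per group over all 18 arrays (lmFit, contrasts.fit, eBayes, 12 residual degrees of freedom), with two-sided tests, Benjamini-Hochberg adjustment over all genes within each contrast and an adjusted p threshold of 0.05. The pipeline was tested on simulated data. Figures were drawn with matplotlib 3.10.9.

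Contrasts were thalidomide minus control at each time, the times of each course against each other, and differences of the exposure effect between times. The second step of each course against its first was added after the values were seen. The members and the gene lists were chosen with earlier results of these data known. Values of every array are given for members called in an exposure contrast, the 8 called members with the largest control change between 24 h and 72 h, and the member of each cluster with the smallest p of exposure. Hoxd1 was added after its values were seen. Other lists name up to 2 called genes per list and contrast. The alternatives were another normalization, a filter on dim genes, other probe set rules, variance models and arrays in the fit, a replicate block and leaving out arrays. The number of arrays limits the precision. Over all genes, deviations of same-numbered arrays of different groups from their group means correlated at r = −0.16 to 0.127, and those of other pairs at −0.189 to 0.187. The replicate numbers were not taken to pair samples. These r values, pooled over times, cannot decide whether arrays of the same time and number belong together. For the members, replicate 3 at 24 h was lowest and replicate 2 at 72 h highest on average in both groups.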

Additional observations from a re-analysis of the deposited data

How the results depend on the processing

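No value of a named member reversed, and 514 recomputed values of named members kept their direction and their side of the threshold. Of the rest 16 lost the threshold, 9 of them for Hoxb4 at 48 h, and Hoxd13 at 48 h passed once. The 1 exposure call at 48 h became 0 under cyclic loess, with all probe sets tested, with only the groups compared in the fit and without both 72 h arrays numbered 2. A filter at the median signal of all genes left Hoxb4 untested, so the count of 0 under it says nothing about that call. Requiring the median signal left 13 of the 36 members and gave 6 calls for the control step from 24 h to 48 h, 7 for the thalidomide course from 24 h to 72 h and 11 for the control course, because fewer members were tested. The control step from 48 h to 72 h had 1 call with all probe sets, with only the groups compared and without both 72 h arrays, and the control course 13 calls without both. The thalidomide step from 48 h to 72 h had 1 call with all probe sets or array weights, and 4 with the trend and robust options or without both 72 h arrays. With the replicate number as a block it had 1 call, and the block moved no other count of calls by over 1.5 times. The labels do not say what a number marks. For 9 of 18 arrays, deviations from the group mean correlated best on average with the other groups' arrays of their own number, out of 3 numbers. Apart from the construction named, the cause was not tested. Without 1 array at a time, calls ranged from 7 to 13 for the thalidomide and 9 to 13 for the control step from 24 h to 48 h, from 1 to 4 and 1 to 3 for the second steps, from 9 to 14 and 13 to 22 for the courses, and from 0 to 2 for exposure at 48 h. They stayed at 0 for exposure at 24 h and 72 h and for the differences of exposure effects. Dim signals, of 8 members in every group and of 7 of 11 thalidomide and 9 of 17 control risers at 24 h, limit what their changes show.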

Other observations

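Transcripts that lie inside the clusters or beside them were measured too. Of 19 listed non-coding genes within the clusters 7 had a value, and Hoxaas3, an antisense transcript of cluster A, had the largest first step among them. It had log2 signals of 6.62, 6.31 and 6.22 at 24 h, 7.66, 7.37 and 7.69 at 48 h and 6.53, 7.23 and 6.83 at 72 h in thalidomide cultures. In controls it had 6.51, 6.36 and 6.20, then 7.75, 7.44 and 7.89, then 6.37, 7.22 and 6.29. In both courses every array of 48 h was above every array of the other times. Hoxaas3 rose by 1.19 ± 0.22 (SE, adjusted p = 0.00165) in thalidomide cultures and 1.34 ± 0.22 (adjusted p = 0.000438) in controls between 24 h and 48 h, and fell by −0.71 (adjusted p = 0.0453) and −1.07 (adjusted p = 0.00544) between 48 h and 72 h. The replicates numbered 2 at 72 h were again the highest of their groups.

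The microRNA gene Mir10b, which lies in cluster D, was the 1 called gene of that list over the control course (0.83, adjusted p = 0.00103), at group means of 2.36 to 3.19, all dim. It was not called in thalidomide cultures. Of all genes, 27.5% were called over the control course. Of 22 listed genes beside the clusters 19 had a value. Of these, 2 rose and 4 fell from 24 h to 72 h in thalidomide cultures, where 14.4% of all genes rose and 10.6% fell. In controls 2 rose and 2 fell, where 13.1% of all genes rose and 14.3% fell. Evx1, a homeobox gene beside cluster A that is known from the primitive streak, fell by −1.30 ± 0.12 (adjusted p = 6.7e-07) in thalidomide cultures and −1.62 ± 0.12 (adjusted p = 4.36e-08) in controls. Skap2, an adaptor gene at the other end of cluster A, rose by 0.59 (adjusted p = 0.000117) in thalidomide cultures and 0.33 (adjusted p = 0.0098) in controls. At 24 h Skap2 (−0.33) and Hibadh (−0.27), an enzyme of valine breakdown, were lower in thalidomide cultures (adjusted p = 0.0367 and 0.0402).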
